A study of Mus musculus with 12 samples.

Results

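The 10 genes described here encode regulators of mitochondrial biogenesis. They are the PGC-1 family coactivators Ppargc1a, Ppargc1b and Pprc1, the transcription factors Esrra, Nrf1, Gabpa and Myc, and the mitochondrial DNA factors Tfam, Tfb2m and Polg. They were taken by gene symbol from a count table of 23863 genes, which held all 10. Of these, 9 passed the filter on low counts and were tested among 13236 genes, and Ppargc1a did not pass.

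Sequenced RNA came from mouse bone marrow cells, osteoclast precursors that were sorted as CD45R- CD3- CD11b-/lo CD115+ cells and cultured in M-CSF, the growth factor of macrophages. One set of cultures also received RANKL at 30 ng/ml, the cytokine that drives such precursors towards bone-resorbing osteoclasts. Cells of female and of male mice were grown both ways, which gave 4 groups of 3 libraries, all harvested on day 3 by the titles, although the growth protocol gives another duration. Mice of every group were RUNX1 fl/+, with 1 floxed allele of the transcription factor gene Runx1, and the titles also carry the tag WT. No Cre and no age is named in the labels, and it is not stated that replicates were different animals or cultures; the p-values measure the spread between these libraries, which may be technical.

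The libraries held 10646697 to 15983769 counts. The label of osteoclast formation was checked with 10 osteoclast marker genes, whose summed level was 73.4 to 79.8 CPM (each library's counts scaled to the same total) in M-CSF libraries and 29358 to 39126 CPM in M-CSF+RANKL libraries. The 9 macrophage and monocyte markers summed to 5023 to 5782 CPM in M-CSF and 3060 to 3450 CPM in M-CSF+RANKL, with Csf1r and Cd68 the highest in both. Of the 9, 6 were called lower with RANKL and 3, Csf1r and Cd68 among them, were not called. The median log2 fold change was -1.39. The 11 neutrophil and granule markers summed to 198 to 536 CPM in M-CSF and 94.7 to 395 CPM in M-CSF+RANKL. The sums were higher in female than in male libraries of the same treatment. Of the 10 tested, 1 was called lower with RANKL, Mmp8, which went from 178 to 52.2 CPM. The other 9 were not called, and the median log2 fold change of the 10 was -0.06. The 5 megakaryocyte markers summed to 215 to 485 CPM in M-CSF, nearly all of it Pf4, and to 4.29 to 18.0 CPM in M-CSF+RANKL. Of the 3 tested, Pf4 (307 to 6.84 CPM) and Ppbp (3.14 to 0.467 CPM) were called lower with RANKL. Gp1ba was called higher, from 0.356 to 1.80 CPM. The sum thus follows Pf4 and does not describe the list as a whole. Markers of B, T and NK, erythroid, stromal, and basophil and mast cells that the table lists summed to at most 4.43 CPM per list in any library. The count table held only 3 of 5 B cell, 2 of 6 T and NK, and 1 of 6 erythroid markers. It held 5 of 5 stromal markers and 3 of 5 of basophils and mast cells. The low sums cover these genes only. Of those tested, Cd79b was called lower with RANKL (2.26 to 1.19 CPM), Kit higher (1.67 to 3.19 CPM), and Cd4 was not called. The part of these marker shifts in the RANKL results below was not tested, and in bulk RNA fewer cells of a type and less RNA per cell cannot be told apart.

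Mitochondria are built from proteins of both genomes, and most of the genes needed lie in the nucleus. Coactivators of the PGC-1 family bind nuclear factors such as the estrogen-related receptor ERRα (Esrra), NRF1 and GABP, also called NRF2, and raise transcription of genes for respiration and mitochondrial maintenance. Among the targets are Tfam, Tfb2m and other genes whose products transcribe and copy mitochondrial DNA. Osteoclasts are rich in mitochondria, and PGC-1β (Ppargc1b) is known in mice as the coactivator of mitochondrial biogenesis in osteoclast formation.

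Promoter windows of 250 bases before to 50 bases after the RefSeq start site (GRCm38.p6) were at hand for 8 of the 10 genes; Ppargc1b and Myc had no entry. They were searched on both strands for letters known to be bound by several of these factors or by CREB: the palindromic NRF1 consensus, CCGGAAGT for ETS factors including GABP, TCAAGGTCA for ERR, CACGTG for MYC and other E-box factors, and TGACGTCA for CREB. These occurred in 4.6%, 3.89%, 0.423%, 7.15% and 1.79% of all 32851 windows, respectively. Only exact matches were counted, so a stretch with a differing letter was passed over. The exact matches in the 8 genes were 1 CCGGAAGT each in Tfam and Polg. The absence of an exact match in the other windows does not show that they lack binding sites of these factors. Both windows are shown because these genes share the match in nearly the same place, and only Tfam of the pair was called for RANKL; the difference between the pair was not tested. The Tfam window lies on the minus strand at chr10:71237995-71238294 with the match (in capitals) 47 to 40 bases before the start site. The Polg window lies on the minus strand at chr7:79466224-79466523 with the match 38 to 31 bases before the start site.
Tfam: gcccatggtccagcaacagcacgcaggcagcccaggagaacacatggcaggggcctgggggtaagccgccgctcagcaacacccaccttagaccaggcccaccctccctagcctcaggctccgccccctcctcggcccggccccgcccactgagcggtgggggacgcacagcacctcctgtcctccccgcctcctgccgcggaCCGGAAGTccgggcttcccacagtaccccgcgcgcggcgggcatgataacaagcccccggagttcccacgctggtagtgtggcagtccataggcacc
Polg: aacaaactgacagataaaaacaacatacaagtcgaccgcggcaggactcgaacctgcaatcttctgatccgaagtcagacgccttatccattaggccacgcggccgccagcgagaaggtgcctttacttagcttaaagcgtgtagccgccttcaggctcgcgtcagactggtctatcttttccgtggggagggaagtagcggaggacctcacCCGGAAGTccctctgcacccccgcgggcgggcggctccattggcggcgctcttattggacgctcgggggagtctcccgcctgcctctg
A match of letters is a description and not a measured binding site.

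Over the mean of both sexes, RANKL changed 5 of the 9 tested regulators at an adjusted p below 0.05 (edgeR quasi-likelihood test, Benjamini-Hochberg over all 13236 genes). Ppargc1b, Esrra, Tfb2m and Tfam rose, Nrf1 fell, and Pprc1, Gabpa, Polg and Myc were not called. In the same comparison 64.7% of all tested genes were called, 33.4% higher and 31.3% lower, so the count of 5 in 9 is near the background. The median log2 fold change was 0.07 for the 9 regulators and 0.02 for all tested genes. The 5 called regulators were also those whose 6 M-CSF+RANKL libraries did not overlap the 6 M-CSF libraries, which held for 47.1% of all tested genes. The size of the responses differed widely, from 21.3-fold for Ppargc1b to 1.23-fold for Tfam among the genes that rose.

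**Figure D1:**
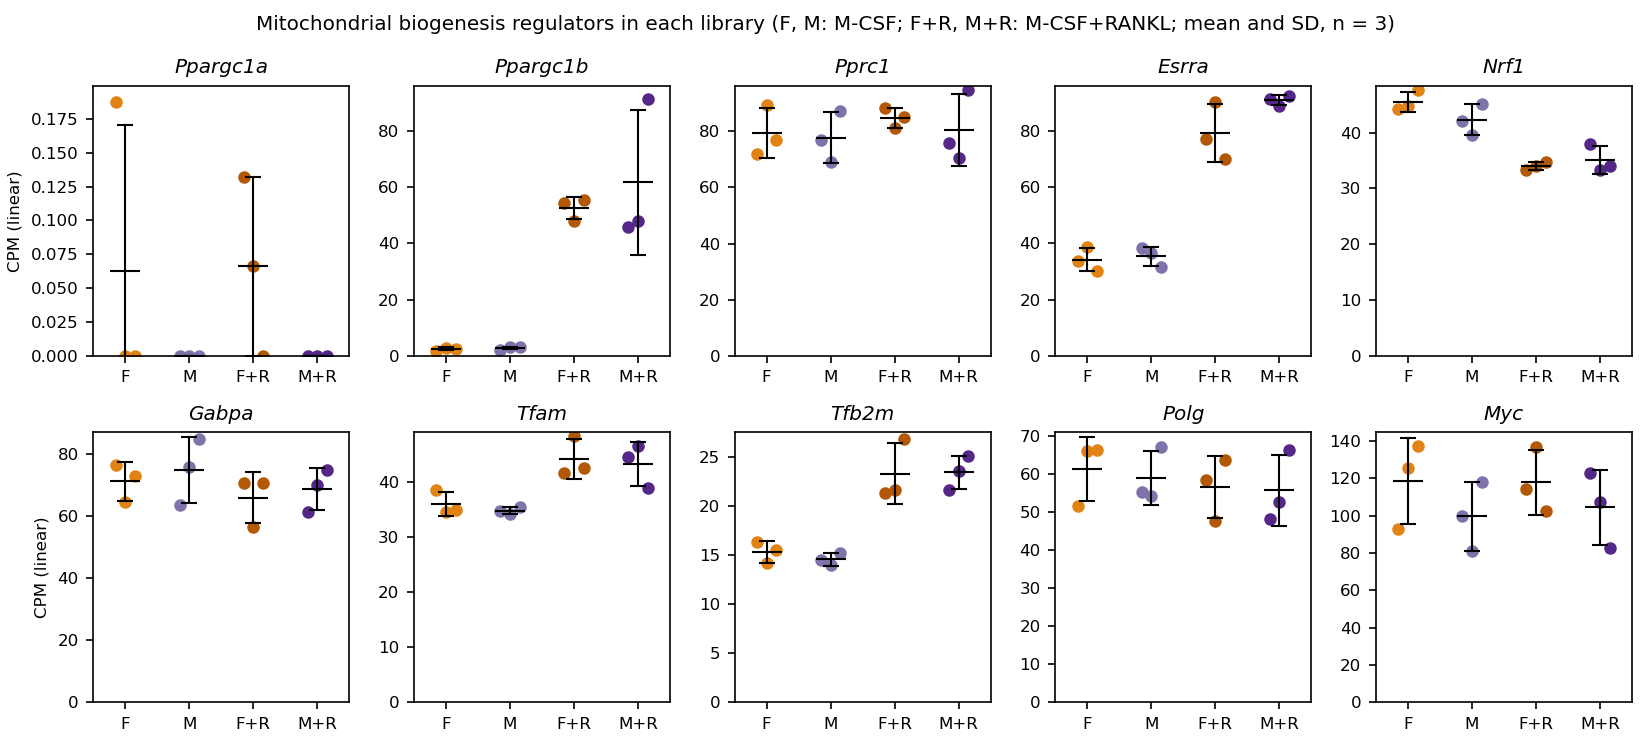
Level of each of the 10 regulators in CPM on linear axes that start at 0 and differ between panels, with 1 point per library and bars for mean and SD of the 3 libraries of a group; F and M are female and male M-CSF, F+R and M+R are female and male M-CSF+RANKL. Ppargc1b lies between 1.88 and 3.13 CPM in M-CSF and between 45.7 and 91.3 CPM in M-CSF+RANKL, while the points of Pprc1, Gabpa, Polg and Myc overlap between treatments.

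Ppargc1b, on chromosome 18 at 61298136 to 61400431 (GRCm38, minus strand, ENSMUSG00000033871), had the largest response of the set. In M-CSF it measured 1.88, 2.91 and 2.62 CPM in the female libraries and 2.23, 3.13 and 3.06 CPM in the male libraries. In M-CSF+RANKL it measured 54.1, 47.9 and 55.3 CPM in the female libraries and 45.7, 48.1 and 91.3 CPM in the male libraries. All 6 M-CSF+RANKL libraries lay far above all 6 M-CSF libraries, and 1 male M-CSF+RANKL library, replicate 3, stood well above the other 5. The rise was 21.3-fold (95% interval 15.8 to 28.8), a log2 fold change of 4.42 ± 0.20 (SE, adjusted p = 2.85e-10), which ranked 465 from the top of 13236 genes. Without male M-CSF+RANKL replicate 3 the log2 fold change was 4.22, and in males alone it was 4.04 in place of 4.44. For Ppargc1b the authors' deposited table lists 4.41 in females and 4.45 in males on the log2 scale.

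Ppargc1a, the founding PGC-1 member, known for its role in brown fat and muscle, was almost undetected. Its 5 counts in all were 2 in female M-CSF replicate 1, 2 in female M-CSF+RANKL replicate 1 and 1 in female M-CSF+RANKL replicate 2, and 9 libraries had 0. A count of 0 allows up to 3 counts, which is 0.190 to 0.278 CPM at the depth of those 9 libraries, for counting error only. No difference between groups was detectable for Ppargc1a at this depth.

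Pprc1, the PGC-1-related coactivator that is known to act with NRF1 in growing cells, was at 69.0 to 89.2 CPM in M-CSF and 70.5 to 94.7 CPM in M-CSF+RANKL. The treatments overlapped across nearly the whole range. The log2 fold change was 0.07 ± 0.09 (SE, adjusted p = 0.514), with a 95% interval of -0.13 to 0.27. Pprc1 shares 177 exonic bases with Ldb1 on the opposite strand, and Ldb1 fell by 0.67 on the log2 scale. No source used here says whether the counting used strand, and reads of the shared bases cannot be assigned with certainty.

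Because levels of different genes compare only per length, the 3 family members were also set side by side as CPM per kilobase of exon. Ppargc1b made up 3.94, 4.88 and 5.09% of the family sum in female M-CSF libraries and 4.36, 6.67 and 5.24% in male M-CSF libraries. In M-CSF+RANKL it made up 49.1, 48.2 and 50.6% in female libraries and 48.6, 51.8 and 60.3% in male libraries. The share thus rose from 5.03 ± 0.94% to 51.4 ± 4.53% (SD, n = 6 each), a difference of 46.4 percentage points (exact permutation test over 924 splits, two-sided p = 0.00216, the smallest it can give). Those splits ignore sex and the pairing of libraries by replicate number within a sex; the share was higher with RANKL in 6 of 6 pairs, and an exact sign permutation over the pairs, with 64 outcomes, gave a two-sided p of 0.0312, again the smallest it can give. The share is computed from the Ppargc1b and Pprc1 levels given above, so neither p-value adds evidence beyond the Ppargc1b rise itself. Pprc1 supplied nearly all the remainder in every library. The shares were 4.60% and 49.1% when the longest transcript set the length.

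**Figure D2:**
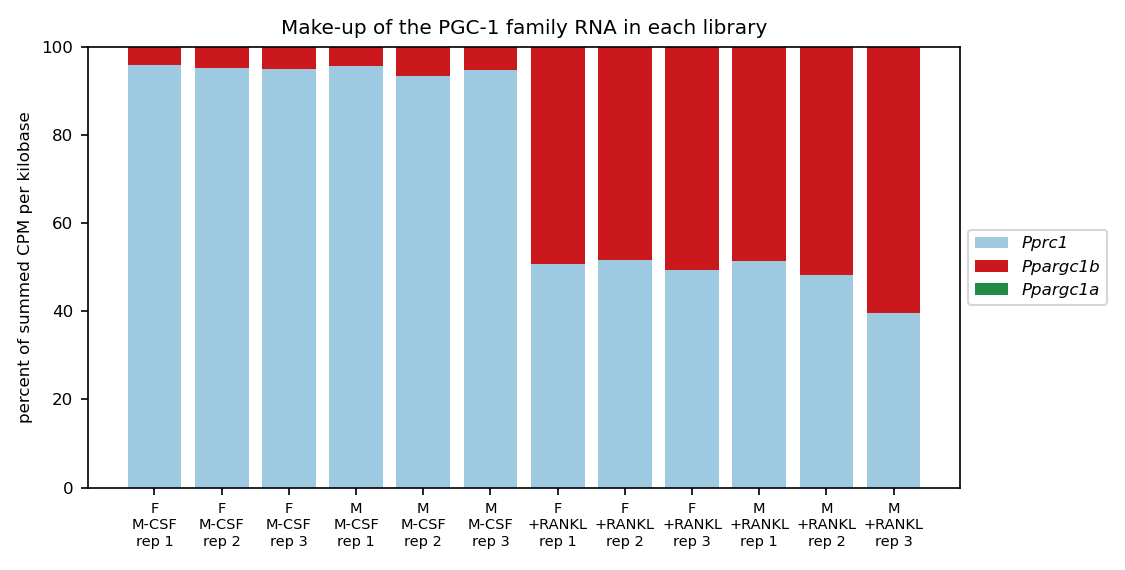
Stacked bars give the percent of the summed CPM per kilobase of the 3 PGC-1 family genes in each of the 12 libraries, with the axis from 0 to 100. Ppargc1b takes 3.94 to 6.67% in M-CSF libraries and 48.2 to 60.3% in M-CSF+RANKL libraries, the highest in male replicate 3, and Ppargc1a is at most 0.238%.

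Among the transcription factors, Esrra encodes the nuclear receptor ERRα, a main partner of PGC-1 coactivators on genes of oxidative metabolism. It measured 33.9, 38.6 and 30.2 CPM in female and 38.3, 36.4 and 31.6 CPM in male M-CSF libraries. With RANKL, the level was 77.2, 90.4 and 70.0 CPM in female and 91.5, 88.9 and 92.5 CPM in male libraries. The lowest M-CSF+RANKL library was well above the highest M-CSF library, and the 3 male M-CSF+RANKL libraries lay close together. The rise was 2.44-fold (95% interval 2.14 to 2.78), with a log2 fold change of 1.28 ± 0.09 (SE, adjusted p = 1.61e-08). Esrra lies on chromosome 19 at 6910977 to 6921813 (GRCm38, minus strand) and shares 73 exonic bases with Trmt112 on the other strand, whose log2 fold change was 0.13 (adjusted p = 0.274).

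Nrf1, the nuclear respiratory factor that binds promoters of respiratory chain and Tfam genes, was the regulator that fell. It measured 44.2, 44.7 and 47.6 CPM in female and 42.1, 39.6 and 45.2 CPM in male M-CSF libraries. The M-CSF+RANKL libraries had 33.3, 34.0 and 34.8 CPM in female and 37.9, 33.3 and 34.0 CPM in male libraries. The 2 sets of libraries came close but did not overlap. The level was 0.787 times that in M-CSF (95% interval 0.711 to 0.872), a log2 fold change of -0.35 ± 0.07 (SE, adjusted p = 0.000506).

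Gabpa, the DNA-binding subunit of GABP, was at 63.6 to 84.8 CPM in M-CSF and 56.3 to 74.6 CPM in M-CSF+RANKL, and the treatments overlapped. Its log2 fold change was -0.12 ± 0.09 (SE, adjusted p = 0.282), with a 95% interval of -0.32 to 0.08. It shares 397 exonic bases with Atp5j, a gene of the ATP synthase on the opposite strand that rose by 0.78 on the log2 scale, with the same limit of strand as for Pprc1. Of the partner subunits that carry GABP's activation domain, Gabpb1 fell by 0.46 on the log2 scale, from 35.2 ± 1.94 to 25.5 ± 0.963 CPM (SD, n = 6 each, adjusted p = 4.58e-05), and Gabpb2 was not called.

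Myc, a growth-promoting factor that is also known to raise transcription of mitochondrial genes, varied between libraries more than it did between treatments. It measured 92.9, 125 and 137 CPM in female and 99.5, 81.2 and 118 CPM in male M-CSF libraries. In M-CSF+RANKL it measured 114, 137 and 102 CPM in female and 123, 108 and 82.9 CPM in male libraries. Both treatments covered nearly the same range. The log2 fold change was 0.03 ± 0.13 (SE, adjusted p = 0.858), and its 95% interval of -0.25 to 0.31 allows small changes in either direction.

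The products of Tfam, Tfb2m and Polg act inside mitochondria. TFAM packages mitochondrial DNA and starts its transcription together with TFB2M and the mitochondrial RNA polymerase, and Polg encodes the catalytic subunit of the mitochondrial DNA polymerase. Tfb2m measured 16.3, 14.1 and 15.5 CPM in female and 14.5, 13.9 and 15.2 CPM in male M-CSF libraries. With RANKL, the level was 21.3, 21.6 and 26.8 CPM in female and 21.7, 23.5 and 25.0 CPM in male libraries. Every M-CSF+RANKL library was above every M-CSF library. The rise was 1.56-fold (95% interval 1.37 to 1.79), a log2 fold change of 0.64 ± 0.09 (SE, adjusted p = 2.22e-05).

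Tfam, whose promoter window is printed above, measured 38.6, 34.6 and 35.0 CPM in female and 34.8, 34.3 and 35.6 CPM in male M-CSF libraries. The M-CSF+RANKL libraries had 41.6, 48.3 and 42.6 CPM in female and 44.6, 46.6 and 38.9 CPM in male libraries. The highest M-CSF and the lowest M-CSF+RANKL library almost touched. The rise was 1.23-fold (95% interval 1.10 to 1.38), a log2 fold change of 0.30 ± 0.07 (SE, adjusted p = 0.00258). Within each sex the calls of Tfam were close to the threshold: 0.0312 (adjusted p) for females and 0.0211 for males, against 0.0954 and 0.0639 without the filter on low counts. The female call of Tfam was also lost without female M-CSF replicate 2 (adjusted p = 0.0966) or 3 (0.103), male M-CSF replicate 1 (0.0511) or female M-CSF+RANKL replicate 2 (0.139). The male call was lost without male M-CSF replicate 1 (0.0560) or 2 (0.0722), or male M-CSF+RANKL replicate 1 (0.0665) or 2 (0.0948).

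Polg, which has the same promoter letters as Tfam, was at 51.7 to 67.1 CPM in M-CSF and 47.7 to 66.4 CPM in M-CSF+RANKL. The treatments overlapped over most of that range. The log2 fold change was -0.10 ± 0.11 (SE, adjusted p = 0.441), with a 95% interval of -0.33 to 0.13. Polg shares 921 exonic bases with the DNA repair gene Fanci on the opposite strand, which fell by 1.33 on the log2 scale, so the value for Polg carries the same limit of strand.

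**Figure D3:**
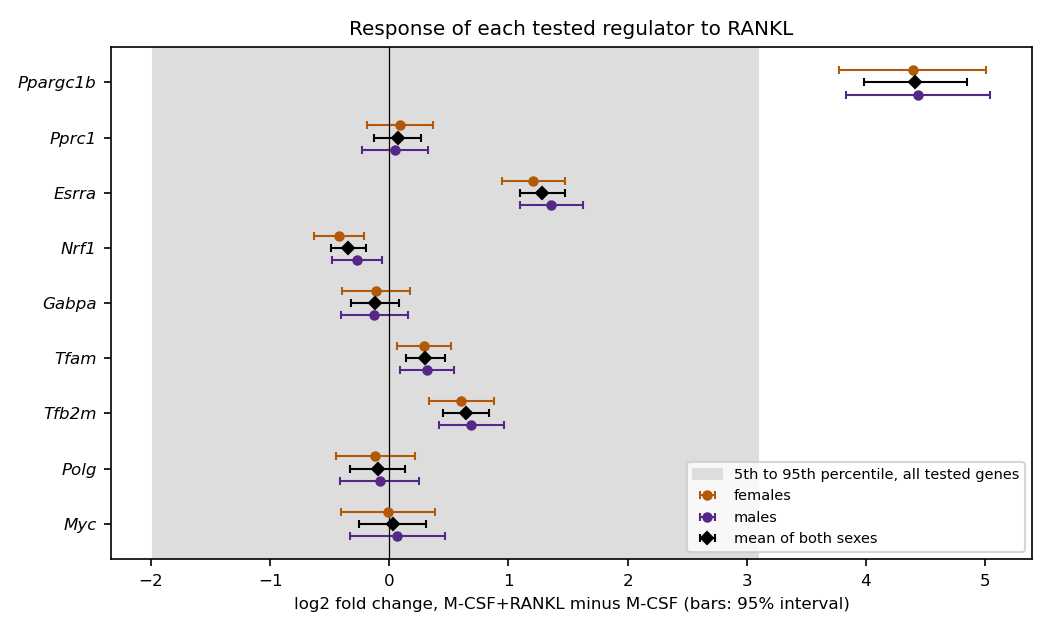
Log2 fold change of M-CSF+RANKL against M-CSF for the 9 tested regulators in females, in males and over the mean of both sexes, with 95% intervals. The grey band spans the 5th to 95th percentile of all 13236 tested genes, from -1.98 to 3.09; Ppargc1b lies above it, and the other 8 regulators lie inside.

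In each sex alone the same 5 regulators were called, 4 higher and 1 lower. In females 51.9% of tested genes were called, 26.8% higher and 25.1% lower, and in males 55.0%, 28.4% higher and 26.6% lower. Ppargc1b rose by a log2 fold change of 4.39 ± 0.29 in females (SE, adjusted p = 3.12e-08) and 4.44 ± 0.28 in males (adjusted p = 1.83e-08). Esrra rose by 1.21 ± 0.12 in females (adjusted p = 2.20e-06) and 1.36 ± 0.12 in males (adjusted p = 5.75e-07). Nrf1 fell by 0.42 in females (adjusted p = 0.00233) and by 0.27 in males (adjusted p = 0.0287), and the male call was lost without the filter on low counts (adjusted p = 0.0821) and in a fit on the male groups alone (adjusted p = 0.065). It was also lost without male M-CSF replicate 1 (adjusted p = 0.0682) or 3 (0.105), or male M-CSF+RANKL replicate 2 (0.121) or 3 (0.0902). The authors' deposited table lists 9 of the 10 regulators and gives the same 5 of them a false discovery rate below 0.05 in each sex.

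The difference of the 2 responses was tested directly. It was called for 0 of the 9 regulators and for 0% of all tested genes by edgeR, and for 0 regulators and 0 genes by DESeq2; 260 genes and 0 regulators had an unadjusted p below 0.05. For Ppargc1b the female response minus the male response was -0.05 on the log2 scale, with a wide 95% interval of -0.93 to 0.83. For Nrf1 it was -0.15, with an interval of -0.44 to 0.14. Smaller differences than these intervals span cannot be seen with 3 libraries per group.

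Between the sexes in M-CSF, 0 of the 9 regulators were called, against 0.0453% of all tested genes, and in M-CSF+RANKL 0 of 9 against 0.0529%. In neither comparison did a regulator have an unadjusted p below 0.05, while 478 and 445 of all tested genes did, and DESeq2 called 0 regulators in either. Female and male libraries overlapped for every tested regulator in both treatments, while 8.42% of all tested genes did not overlap in M-CSF and 7.61% in M-CSF+RANKL. The neutrophil and granule markers were higher in female libraries, and their part in these values was not tested. The largest log2 difference in M-CSF was that of Myc, 0.25 ± 0.18 (SE, female minus male, adjusted p = 0.873). In M-CSF+RANKL it was that of Ppargc1b, -0.23 ± 0.22 (SE, not called), which turned to 0.16 without male replicate 3.

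Per kilobase of exon, Myc was the highest of the 10 in both treatments, at 40.1 ± 7.85 CPM per kilobase in M-CSF and 40.9 ± 6.75 in M-CSF+RANKL (SD, n = 6 each). In M-CSF the order went on with Gabpa (12.8) and Pprc1 (12.5), which overlapped, then Tfam (7.99) and Esrra (7.94), which overlapped, Polg (5.60) and Tfb2m (5.33), which overlapped, Nrf1 (4.27), Ppargc1b (0.661) and Ppargc1a (0.00474). Neighbours in that order not named as overlapping were apart in all 6 libraries. With RANKL, Esrra moved to the second place at 19.4 ± 2.11 and Ppargc1b to the third at 14.3 ± 4.31, although libraries of Esrra, Ppargc1b, Pprc1, Gabpa, Tfam and Tfb2m overlapped from each to the next. Ranks in the middle of the order depended on the length used: with the longest transcript, Nrf1 in M-CSF stood at 10.9 and in the fifth place, above Tfam at 8.51.

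Within a group, libraries did not deviate in all regulators alike. Male M-CSF replicate 3 was the highest of its group for 7 of the 9 tested regulators, where 33.6% of all tested genes were highest in it. Male M-CSF+RANKL replicate 3 was the highest for 6 of the 9, where 37.3% of all tested genes were. These 2 libraries carry the same replicate number, and their deviations correlated at r = 0.597 over 8920 genes, which are not independent replicates. Male M-CSF replicate 2 was the lowest of its group for 6 of the 9, where 25.7% of all tested genes were. Each of the remaining 9 libraries was the highest for 1 to 5 regulators and the lowest for 1 to 5. In male M-CSF+RANKL replicate 3, Ppargc1b deviated from its group mean by 0.64 on the log2 scale, while Myc deviated by -0.31 and Tfam by -0.15. The range of deviations was narrowest for Nrf1, from -0.09 to 0.11.

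**Figure D4:**
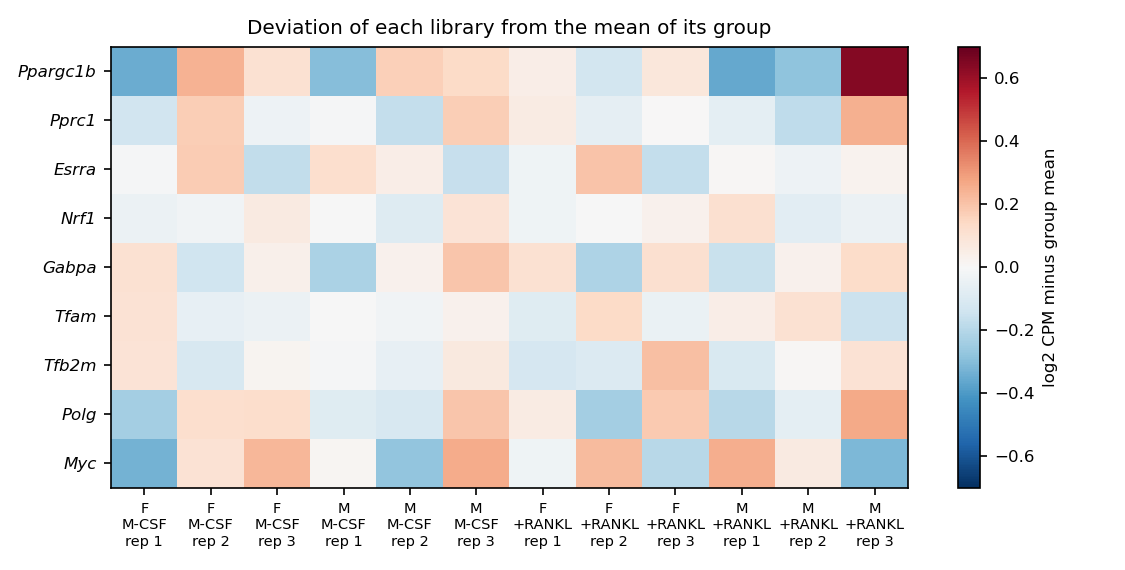
Heat map of each library's deviation from the mean of its group, in log2 CPM, for the 9 tested regulators (rows) in the 12 libraries (columns); red is above and blue below the group mean. The strongest cell is Ppargc1b in male M-CSF+RANKL replicate 3, at 0.64, and Myc is 0.31 below its mean in the same library.

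The 3 tested genes with log2 CPM most like that of Ppargc1b over the 12 libraries were Rassf8 (Pearson r = 0.998), Zswim4 (0.998) and Gnptab (0.998). For Esrra they were Agap3, Hmg20b and Fam214b (r = 0.996 each). Their values follow the split of 6 against 6 libraries by treatment, which so many genes share that these correlations are a description only. For Myc the closest were Itpk1 (r = 0.875), Cct4 (0.863) and Dcaf15 (0.852), and these had log2 fold changes of 0.01, 0.03 and -0.03 for RANKL.

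Other genes of the same pathways were read from lists of related function, against the same backgrounds of 33.4% higher and 31.3% lower. Of 19 further genes that transcribe, replicate or maintain mitochondrial DNA, 8 rose, 2 fell and 9 were not called, with a median log2 fold change of 0.22. Mterf2, of the mitochondrial transcription termination factor family, rose by 3.41 ± 0.20 (SE, adjusted p = 3.57e-09) from 0.498 ± 0.153 to 5.41 ± 0.607 CPM (SD, n = 6 each). Twnk, the replicative helicase Twinkle, rose from 11.1 ± 1.38 to 23.8 ± 1.46 CPM, and Lonp1, the matrix protease that degrades TFAM, from 95.4 ± 7.12 to 192 ± 14.8 CPM. Polg2, the accessory subunit of the polymerase whose catalytic subunit is Polg, fell from 7.60 ± 1.14 to 3.83 ± 0.625 CPM (adjusted p = 1.47e-05). Polrmt, the mitochondrial RNA polymerase that works with TFAM and TFB2M, was looked up after its value was seen; it rose by 0.46 ± 0.09 on the log2 scale (SE, adjusted p = 0.000313).

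Of 22 partners and upstream regulators of PGC-1, 19 were tested, and 5 rose, 6 fell and 8 were not called, with a median of -0.01. Perm1, the PGC-1- and ERR-induced regulator known from muscle, rose by 4.64 ± 0.15 (SE, adjusted p = 1.37e-11) from 2.98 ± 0.634 to 74.5 ± 11.1 CPM (SD, n = 6 each). The nuclear receptors Rxra and Pparg, partners in a heterodimer that PGC-1 coactivators bind, fell by 2.27 and 1.83 on the log2 scale (adjusted p = 9.34e-10 and 1.54e-07). Prkaa2, a catalytic subunit of the energy sensor AMPK, rose from 0.560 ± 0.433 to 1.04 ± 0.309 CPM (adjusted p = 0.0402), a level of few counts. Prkaa1, the other catalytic subunit, was looked up after its value was seen. It was at a far higher level and fell from 74.0 ± 4.38 to 51.0 ± 3.85 CPM (adjusted p = 1.18e-05). The list thus moved in both directions.

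Of 11 genes around Myc in the MYC, MAX and MXD network, 10 were tested, and 4 rose, 2 fell and 4 were not called, with a median of 0.13. Mycl, a paralog of Myc, rose by 5.03 ± 0.22 (SE, adjusted p = 1.77e-10) from 1.18 ± 0.548 to 38.6 ± 5.83 CPM (SD, n = 6 each). Mxd3, a MAX partner that opposes MYC, fell from 8.75 ± 0.856 to 1.57 ± 0.290 CPM (adjusted p = 2.65e-09). Mlxip, a member of the same dimerisation network, rose by 1.05 on the log2 scale (adjusted p = 1.75e-06). Mxi1 and Mxd1, MAX partners that oppose MYC as Mxd3 does, rose by 0.65 and 0.62 (adjusted p = 1.31e-05 and 0.000566). Mxi1 went from 21.4 to 33.6 CPM and Mxd1, looked up after its value was seen, from 12.6 to 19.4 CPM. Genes that oppose MYC thus moved in both directions. The other gene that fell was Max itself, by 0.18 (adjusted p = 0.0354), and the count of genes that fell was 1 without the filter on low counts and in 9 of the 12 fits that left out 1 library.

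The lists that describe mitochondrial content leaned upward. Of 20 tested genes of mitochondrial protein import, 16 rose and 1 fell (median 0.63), led by Timm10 at 1.23, Timm44 at 1.15 and Tomm40 at 1.04 on the log2 scale. With the replicate block, 2 genes of protein import were called lower in place of 1. Of 15 genes of fusion, fission and mitophagy, 11 rose and 2 fell (median 0.69), among them Mfn2, an outer membrane fusion protein, at 1.25 and Phb2, a prohibitin of the inner membrane, at 0.91 on the log2 scale. Of 77 mitochondrial ribosomal protein genes, 59 rose and 2 fell (median 0.43), with Mrps6 at 1.82 and Mrps35 at 1.79 the largest.

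Of the 13 messenger RNAs encoded by mitochondrial DNA, 10 were tested, and 9 rose and 0 fell, with a median of 0.97. Of the 10, mt-Co2, mt-Co3 and mt-Atp6 had only 221, 161 and 94 counts over all 12 libraries. Every other tested gene of this list had at least 123428. Of these low genes, mt-Co2 and mt-Co3 are among the 9 that rose, and mt-Atp6 was not called. The largest change was that of mt-Cytb, a subunit of respiratory complex III, at 1.28 ± 0.11 on the log2 scale (SE, adjusted p = 1.13e-07). In females alone 6 of the 10 rose and in males 10 of 10. Within a sex, the low genes mt-Co2, mt-Co3 and mt-Atp6 were called in males only. The difference of the responses was called for 0 of the 10. These genes are part of the mitochondrial share of all counts, which was 1.43 to 2.35% in M-CSF and 2.96 to 3.86% in M-CSF+RANKL libraries. The libraries were selected for poly(A) RNA and how reads with several matches were counted is not given in the sources used here, which limits the levels of these transcripts.

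**Figure D5:**
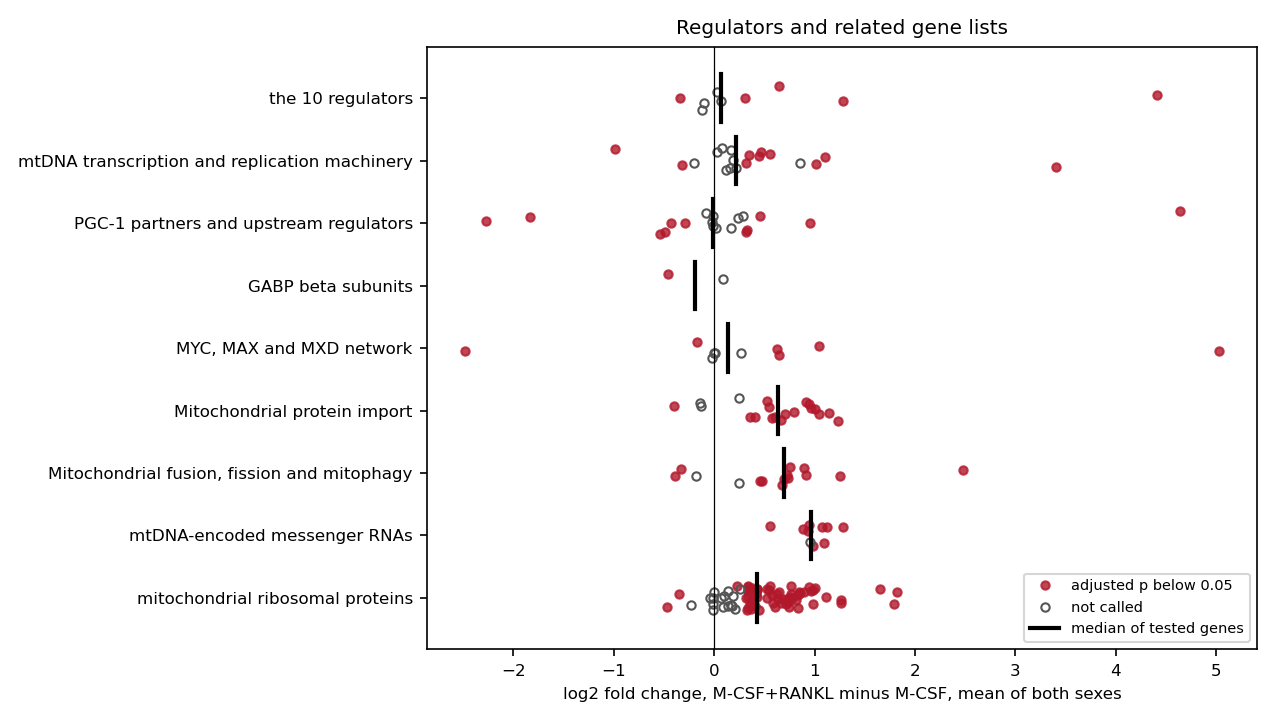
Log2 fold change of M-CSF+RANKL against M-CSF over the mean of both sexes for each tested gene (points) of the 10 regulators and 8 related lists (rows), with filled points for an adjusted p below 0.05 and black bars at the median of each list. The medians are 0.07 for the regulators, 0.63 for protein import, 0.69 for fusion, fission and mitophagy and 0.97 for messenger RNAs of mitochondrial DNA.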

How the data were processed

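Cultured cells were lysed for RNA with RNeasy Plus, and poly(A) libraries were built with a TruSeq Stranded kit, per the labels' protocols. Per the submitters' processing notes, fastp, STAR 2.7.3a, edgeR and the build mm10 were used. How reads were counted (program, strand, annotation) is not given in those sources. The authors deposited whole-number read counts per gene, and a table of their own log2 fold changes with p-values and false discovery rates, quoted where named.

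From the counts, filterByExpr (minimum count 10) kept 13236 genes, and TMM scaled the libraries. The quasi-likelihood model of edgeR was fitted to all 12 libraries, 1 mean for each of the 4 groups (R 4.3.3, edgeR 4.0.16). It was first run on simulated counts. These were drawn independently for each library, so that run does not cover libraries that deviate together by replicate number, as described below. A gene was called where its Benjamini-Hochberg adjusted p was below 0.05. Levels are CPM on TMM-scaled totals, per kilobase by exon lengths of GENCODE vM21 (23855 of 23863 genes matched). DESeq2 1.42.0, other filters, scalings and sets of libraries were alternatives. Depth was 10646697 to 15983769 counts.

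The regulators and lists were chosen with earlier results of these data known; of each related list the called genes with the largest change, at most 4, were eligible to be named. Some genes so chosen are not reported here. Within a sex, libraries with the same replicate number in the titles deviated together from their group means. Their r was 0.302 to 0.706, against -0.618 to -0.00958 for other numbers. Deviations from a mean of 3 libraries cancel within a group, which in itself lowers r for other numbers. Libraries of different sex and number reached r = 0.729 within a treatment, so r alone does not settle the pairing. For the RANKL response, the replicate block took the numbers as pairs.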

Additional observations from a re-analysis of the deposited data

How the results depend on the processing

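Over the mean of both sexes, the same 5 regulators were called under DESeq2, DESeq2 size factors, no filter on low counts, the replicate block and each of the 12 fits without 1 library. Without the filter, 3 regulators were called in males, and the counts of genes called between the sexes were 12 in M-CSF and 11 in M-CSF+RANKL; DESeq2 called 16 and 20, and a fit on the M-CSF groups alone called 10. With the replicate block, Myc in females had a log2 fold change of 0.000346, and no call of a regulator changed.

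Leaving out 1 library at a time gave 3 to 5 called regulators in males and 6 to 12 genes between the sexes in M-CSF+RANKL. The regulators whose log2 value changed sign in such a fit, none of them called in that comparison, ranged as follows. For the RANKL response over both sexes, this was Myc -0.0456 to 0.10. For the difference of the responses (female minus male), these were Pprc1 -0.0502 to 0.19, Tfam -0.10 to 0.0276, Ppargc1b -0.23 to 0.36, Gabpa -0.087 to 0.11, Polg -0.15 to 0.11 and Myc -0.23 to 0.0684. For females minus males in M-CSF, these were Tfam -0.00309 to 0.0754, Pprc1 -0.0657 to 0.12, Polg -0.0129 to 0.17, Esrra -0.15 to 0.0417 and Gabpa -0.17 to 0.0282. For the RANKL response in females, this was Myc -0.16 to 0.10. For the RANKL response in males, these were Pprc1 -0.0862 to 0.14, Myc -0.0721 to 0.21 and Polg -0.22 to 0.0224. For females minus males in M-CSF+RANKL, these were Tfb2m -0.12 to 0.0479, Polg -0.0749 to 0.17, Gabpa -0.14 to 0.0344, Tfam -0.0508 to 0.0775, Nrf1 -0.0858 to 0.0122, Pprc1 -0.0158 to 0.21 and Ppargc1b -0.41 to 0.16.

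Within a sex, the calls of Tfam and of Nrf1 in males rested on the libraries: the highest adjusted p without 1 library was 0.139 for Tfam in females, 0.0948 for Tfam in males and 0.121 for Nrf1 in males. In males, 3 regulators were called without male M-CSF replicate 1 or without male M-CSF+RANKL replicate 2. In a fit on the female groups alone the adjusted p of Tfam was 0.0668. Scaling by DESeq2 size factors moved the median of all genes by at most 0.0112 (log2). The cause of these changes was not tested. The mean of both sexes and the difference of responses use all groups, so a fit on fewer groups was not run for them. Depth limits Ppargc1a, with 5 counts in all, and the 3 libraries per group limit the comparisons of the sexes.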
